A study of Mus musculus with 4 samples.

Results

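Lipid uptake and storage in tumour macrophages was followed through 10 genes: Cd36, Pparg, Fabp4, Fabp5, Lpl, Lipa, Plin2, Soat1, Acsl1 and Pnpla2. These genes were chosen by name, with earlier results of these data known. They were found through their Ensembl identifiers among the 55029 gene identifiers of the authors' table of gene differences. All 10 had been tested by the authors, and each had a locus of its own, shared with no other gene. RNA sequencing had been done on 4 samples of macrophages derived from mouse MCA fibrosarcoma tumours, with the tumour line given as 9609 parent and the genotype as WT in every sample. Of these, 2 samples had received MEK1-hi exosomes and 2 had received MEK1-low exosomes, which the treatment label also marks GFP. Exosomes are small vesicles that cells release, and MEK1 is a kinase that phosphorylates the ERK kinases. The treatment was in vitro, by the name of the authors' table, and its dose and duration are not given in the sources used here. Nothing there says that both samples of a treatment are separate cultures or animals, so the p-values may measure only technical spread. There were no untreated macrophages, so every difference below is between both kinds of exosome, and MEK1 content cannot be told apart from the other differences between a MEK1 and a GFP exosome.

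Macrophages take up fatty acids through the scavenger receptor CD36 and release others from lipoproteins at their surface with lipoprotein lipase. Inside the cell, fatty acid binding proteins carry them, acyl-CoA synthetases activate them, and what is not burned is stored as triglyceride or cholesterol ester in droplets coated by perilipin 2. PPAR gamma, a nuclear receptor that binds fatty acids and pairs with the retinoid X receptors, is known to drive Cd36, Fabp4 and other genes of this system, and lipid-loaded macrophages are known from atherosclerotic plaques and from tumours.

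Levels are the authors' group values in FPKM (fragments per kilobase of transcript, scaled to library size), 1 value per group and thus with no measure of spread. Where 2 values follow a gene, the first is the MEK1-low and the second the MEK1-hi value. A log2 fold change is the log2 of the MEK1-hi over the MEK1-low value. A gene is said to have risen or fallen where the authors' Cuffdiff test gave a q-value (the p-value adjusted over all tested loci) under 0.05. Of the 12648 loci tested, 2.44% passed, 0.751% higher and 1.69% lower with MEK1-hi exosomes. Among the loci with at least 10 FPKM in either group, which all 10 genes reached, 3.23% passed. The depth behind each value is unknown without counts. In bulk samples, fewer cells of a type and less RNA per cell cannot be told apart.

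Of the 10 genes, 2 rose (Cd36 and Fabp4), 1 fell (Acsl1) and 7 did not pass the test. The fatty acid receptor gene Cd36 rose 1.93-fold, the fatty acid carrier gene Fabp4 rose 1.54-fold, and the acyl-CoA synthetase gene Acsl1 fell 2.07-fold. Values were higher in 7 genes and lower in 3. The median log2 fold change of the 10 genes was 0.18, beside 0.00 over all tested loci. By the unadjusted p-values of the authors' deposited table, 5 of the 10 genes lay under 0.05, against 8.66% of all tested loci. Of these, 4 were higher (Cd36, Fabp4, Pparg and Plin2) and 1 lower (Acsl1), where 3.53% of all loci were higher and 5.12% lower.

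**Figure D1:**
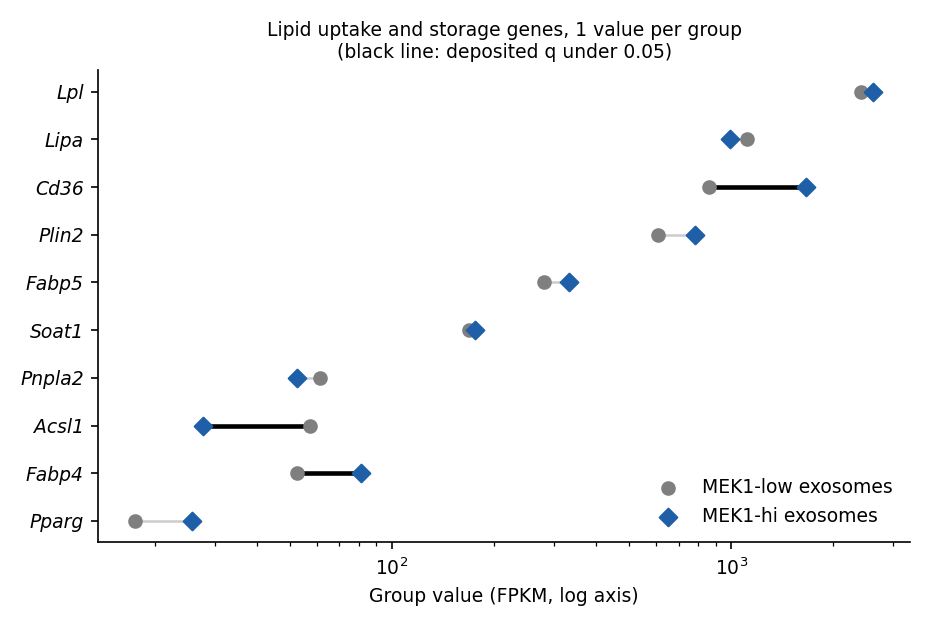
FPKM on a log axis for each of the 10 genes, with a grey circle for the MEK1-low and a blue diamond for the MEK1-hi group value and a black line where the deposited q-value was under 0.05. Cd36 and Fabp4 moved to the right and Acsl1 to the left, while Lpl, Lipa and Soat1 had nearly overlapping symbols.

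The 10 genes spanned a wide range of abundance. With MEK1-low exosomes the order from the highest level was Lpl, Lipa, Cd36, Plin2, Fabp5, Soat1, Pnpla2, Acsl1, Fabp4 and Pparg. With MEK1-hi exosomes Cd36 stood above Lipa, and Fabp4 stood above Pnpla2 and Acsl1. Whether neighbours in either order differ beyond their spread cannot be said from 1 value per group. Summed over the 10 genes, the level was 5623 FPKM under MEK1-low and 6742 FPKM under MEK1-hi treatment, a difference of 1119 FPKM. Cd36 made up 15.3% of the first sum and 24.6% of the second, and Lpl 42.8% and 38.8%.

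Cd36 encodes the receptor that brings long-chain fatty acids and oxidised lipoproteins into macrophages (chromosome 5, 17781690 to 17888801, minus strand, mm10). Its level was 859 FPKM under MEK1-low and 1658 FPKM under MEK1-hi treatment. The log2 fold change was 0.95 (test statistic 3.69, p = 5e-05, q = 0.00349, from the authors' deposited table). The p-value is the smallest in that table and is shared by 181 loci. Cd36 ranked at 78 among all loci of the MEK1-low group by level and at 33 in the MEK1-hi group. Of the tested loci, 98.2% had a lower log2 fold change than Cd36.

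Acsl1 encodes a long-chain acyl-CoA synthetase, which joins fatty acids to coenzyme A so that they can be burned or built into lipids (chromosome 8, 46471037 to 46536051, plus strand, mm10). Its level was 57.4 FPKM under MEK1-low and 27.7 FPKM under MEK1-hi treatment. This is a log2 fold change of -1.05 (test statistic -4.58, p = 5e-05, q = 0.00349, from the authors' deposited table). This was the largest absolute log2 fold change among the 10 genes, and 2.08% of the tested loci had a lower value. Cd36 and Acsl1 thus moved in opposite directions.

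The stretches before their annotated starts are shown because these genes, both counted among PPAR targets, went in opposite directions. Each is the 250 bases before a RefSeq start (GRCm38.p6, the assembly also called mm10), printed 5′ to 3′ on the gene's strand. Capitals mark the letters AGGTCA, the core of the sites that nuclear receptors bind, on either strand (TGACCT where it lies on the other strand).
Cd36, chr5:17835897-17836146, minus strand: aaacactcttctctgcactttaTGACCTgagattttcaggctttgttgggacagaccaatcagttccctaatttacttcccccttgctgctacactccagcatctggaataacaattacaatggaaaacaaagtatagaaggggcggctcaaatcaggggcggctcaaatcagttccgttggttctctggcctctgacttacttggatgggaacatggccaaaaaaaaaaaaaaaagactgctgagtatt
Acsl1, first start, chr8:46470787-46471036, plus strand: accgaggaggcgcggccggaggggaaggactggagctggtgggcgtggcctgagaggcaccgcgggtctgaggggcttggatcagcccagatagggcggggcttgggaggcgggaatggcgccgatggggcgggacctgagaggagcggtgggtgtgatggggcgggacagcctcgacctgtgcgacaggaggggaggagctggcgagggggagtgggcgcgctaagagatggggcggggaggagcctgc
Acsl1, second start, chr8:46490716-46490965, plus strand: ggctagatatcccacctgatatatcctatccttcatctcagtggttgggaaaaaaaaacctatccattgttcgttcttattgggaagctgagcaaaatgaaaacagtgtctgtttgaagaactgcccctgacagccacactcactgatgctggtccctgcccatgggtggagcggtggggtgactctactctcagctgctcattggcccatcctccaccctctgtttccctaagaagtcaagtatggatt
The Cd36 stretch lies in an intron of longer annotated Cd36 transcripts, 52905 bases from the outermost start, and the second Acsl1 start is 19929 bases inside the gene. The table has 1 value per locus and does not tell these starts apart. Neither stretch of Acsl1 overlaps an annotated exon.

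RefSeq windows of 250 bases before to 50 bases after a start were at hand for 7 of the 10 genes, 10 windows in all. Fabp4, Fabp5 and Lpl had no window and were not searched. Both strands were searched. AGGTCA was found in 4 of the 10 windows, in Cd36, in Plin2 and at 2 of 3 Pparg starts, against 16.3% of all 32851 windows. Pparg alone gave 3 of the 10 windows and 2 of the 4 matches, and whether the share differs from that of all windows was not tested. The exact DR1 form of the PPAR element is 2 copies of AGGTCA in a row with any 1 base between them. It was in 0 of the 10 and in 0.0396% of all windows. A form so rare would be missing from almost any 10 windows, so its absence says nothing about PPAR sites at these genes. Inexact copies were not searched for. TGACNNNGC, the core of the NRF2 element, was in 2 (Soat1 and 1 Pparg start) against 12.4%. CACGTG, the core bound by the lysosomal regulator TFEB and other E-box factors, was in 1 (Plin2) against 7.15%. The AP-1 site TGAGTCA was in 0 against 5.2%. A match is a description of the letters and not a binding site. The GC content before the start was 72% at the first and 48.4% at the second Acsl1 start and 43.2% at Cd36, with a median of 52.4% over the same bases of all windows.

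Pparg, the receptor gene itself (chromosome 6, 115360951 to 115490399, plus strand, mm10), had the lowest level of the 10 genes, 17.5 FPKM under MEK1-low and 25.8 FPKM under MEK1-hi treatment. Its log2 fold change of 0.56 did not pass the test over all loci (p = 0.0078, q = 0.187, from the authors' deposited table). Of the tested loci, 94.8% had a lower log2 fold change. Pparg has several annotated starts, which give the PPAR gamma 1 and PPAR gamma 2 forms, and the table does not separate them.

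None of the 12 other tested loci of PPAR and RXR receptors with their cofactors passed in the authors' deposited table. Before adjustment, 0 were higher and 1 lower at a p under 0.05. Their median log2 fold change was -0.03. The partner receptor gene Rxra stood at 37.5 and 39.9 FPKM. Ppard, a related receptor gene, stood at 14.5 FPKM under MEK1-low and 12.0 FPKM under MEK1-hi treatment, and Ppara was listed at 0 in both groups.

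Fabp4 encodes a small cytosolic protein that carries fatty acids in macrophages and fat cells (chromosome 3, 10204088 to 10208576, minus strand, mm10). Its level was 52.5 FPKM under MEK1-low and 80.8 FPKM under MEK1-hi treatment. The log2 fold change was 0.62 (test statistic 2.70, p = 0.0002, q = 0.011, from the authors' deposited table). Fabp5, which encodes a related carrier, lies on the same chromosome (10012548 to 10016607, plus strand), 187 kilobases away. It stood at 281 and 333 FPKM, which is 0.25 on the log2 scale (p = 0.0968, q = 0.779, from the authors' deposited table). Between and beside these genes, Fabp9 and Pmp2, joined in 1 locus, and Fabp12 were listed at 0 in both groups. Fabp5 was 5.34 times as abundant as Fabp4 with MEK1-low and 4.12 times with MEK1-hi exosomes, per length of transcript.

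The Fabp5 level is uncertain, because its reads may be split with 2 near-identical processed pseudogenes. Over 409 bases, the transcript of the pseudogene Gm6166 (chromosome 9, 57483963 to 57484371, mm10) was 98.3% identical to that of Fabp5. Gm6166 was listed at 382 FPKM under MEK1-low and 480.2 FPKM under MEK1-hi treatment, above Fabp5 itself in both groups. Its log2 fold change of 0.33 did not pass the test (p = 0.02395, q = 0.381, from the authors' deposited table). The other pseudogene, Gm14328, was 97.3% identical over 408 bases and stood at 70.7 and 76.2 FPKM, which is 0.11 on the log2 scale (p = 0.556, q = 0.999, from the authors' deposited table). Among the other 9 genes, Plin2 alone had such a copy (at least 95% identity over at least 200 bases), the pseudogene Gm12551, which was listed at 0 in both groups.

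**Figure D2:**
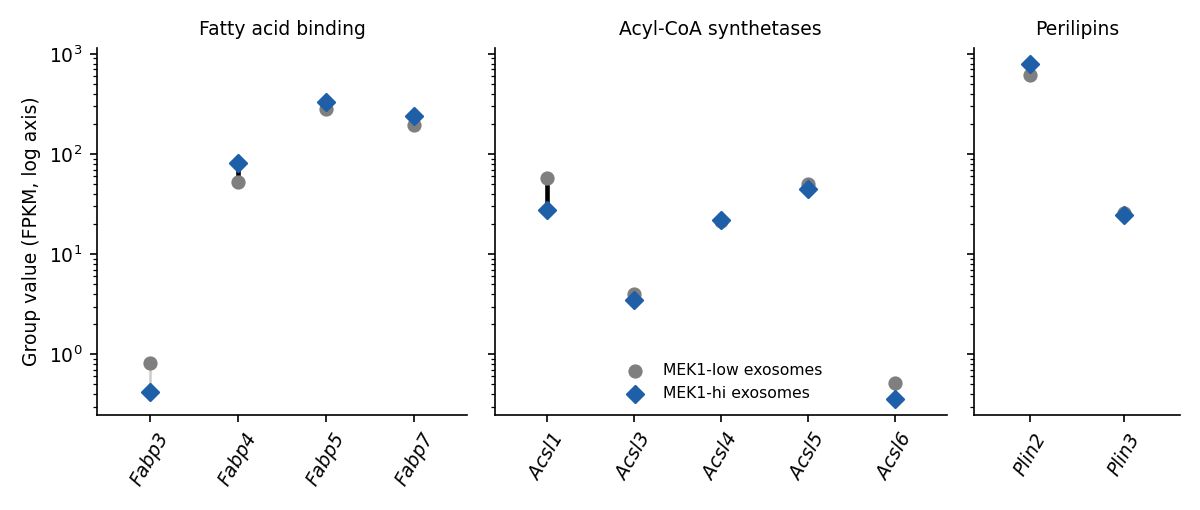
FPKM on a log axis for the fatty acid binding protein, acyl-CoA synthetase and perilipin genes above 0.1 FPKM in either group, with grey circles for MEK1-low and blue diamonds for MEK1-hi exosomes and a black line where the deposited q-value was under 0.05. In each of the first 2 families 1 gene passed, Fabp4 higher and Acsl1 lower, and neither perilipin gene drawn did.

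Within the acyl-CoA synthetase family, 4 of 5 genes were tested and Acsl1 was the 1 that passed in the authors' deposited table. Acsl5 stood at 50.4 FPKM under MEK1-low and 44.5 FPKM under MEK1-hi treatment, and Acsl4, which prefers arachidonic acid, at 21.2 and 21.7 FPKM. Acsl3, in a locus joined with Utp14b, stood at 4.03 and 3.51 FPKM. Acsl1 thereby went from 43.2% to 28.5% of the summed level of these 4 loci, and from 1.14 to 0.623 times the level of Acsl5. The wider list of fatty acid activation, which adds thioesterases and an acetyl-CoA synthetase, had 9 other tested loci, of which 0 passed. Before adjustment 1 had a p under 0.05, namely Acss2, the acetyl-CoA synthetase gene, at 17.9 and 9.60 FPKM (p = 0.00705, q = 0.175, from the authors' deposited table). The thioesterase genes Acot7 and Acot13 had levels of 63.5 and 56.2 FPKM and of 37.6 and 34.9 FPKM.

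Lpl, the gene of lipoprotein lipase, was the most abundant of the 10 (chromosome 8, 68880491 to 68907448, plus strand, mm10). It stood at 2407 FPKM under MEK1-low and 2613 FPKM under MEK1-hi treatment. This is a log2 fold change of 0.12 (p = 0.624, q = 0.999, from the authors' deposited table). Cd36 was at 0.357 of the Lpl level with MEK1-low and at 0.635 of it with MEK1-hi exosomes. Of 7 other tested loci of lipoprotein lipase regulators and apolipoproteins, 0 passed, also with 0 at an unadjusted p under 0.05. The lipase inhibitor gene Angptl4, another known PPAR target, stood at 8.98 and 10.7 FPKM. Apoe, which encodes apolipoprotein E, stood at 19858 and 22876 FPKM (q = 0.999, from the authors' deposited table).

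Plin2 encodes the protein that coats lipid droplets in macrophages (chromosome 4, 86648386 to 86670060, minus strand, mm10). Its level was 609.7 FPKM under MEK1-low and 784 FPKM under MEK1-hi treatment. The log2 fold change of 0.36 did not pass over all loci (p = 0.0317, q = 0.455, from the authors' deposited table). The stretch before its start is shown because it held AGGTCA like that of Cd36, in capitals as above.
Plin2, chr4:86670060-86670309, minus strand: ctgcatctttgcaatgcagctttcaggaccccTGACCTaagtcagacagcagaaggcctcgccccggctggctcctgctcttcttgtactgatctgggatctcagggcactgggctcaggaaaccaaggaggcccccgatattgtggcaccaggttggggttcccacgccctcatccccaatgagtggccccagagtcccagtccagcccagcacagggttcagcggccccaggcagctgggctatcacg
In both genes the AGGTCA letters lay far from the start, at position -228 in Cd36 and -218 in Plin2, counted from the first transcribed base. The CACGTG match of Plin2 crosses the start and is cut short here.

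Plin3, the other perilipin gene tested, stood at 25.8 and 24.8 FPKM, and Plin1, Plin4 and Plin5 were not tested. Of the 7 other tested loci of droplet coat proteins and their regulators, 0 passed, with 0 at an unadjusted p under 0.05. Hilpda, a droplet gene induced by low oxygen, stood at 15.6 and 18.5 FPKM, and Abhd5, the activator of adipose triglyceride lipase, at 37.5 and 39.5 FPKM.

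Of 13 tested loci of triglyceride synthesis and droplet assembly, Agpat4, an acyltransferase gene, fell from 32.8 to 22.2 FPKM (q = 0.0135, from the authors' deposited table), and 0 rose. Dgat1, which encodes the enzyme of the last step, stood at 11.7 and 12.3 FPKM, and Dgat2 at 0.857 and 0.782 FPKM. Over the list, the median log2 fold change was 0.11.

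Pnpla2, which encodes adipose triglyceride lipase, the first enzyme of droplet breakdown (chromosome 7, 141455198 to 141460743, plus strand, mm10), stood at 61.3 FPKM under MEK1-low and 52.7 FPKM under MEK1-hi treatment. The log2 fold change was -0.22 (p = 0.158, q = 0.914, from the authors' deposited table). Of 8 other tested loci of neutral lipid hydrolysis 0 passed, with 0 at an unadjusted p under 0.05. Nceh1, a cholesterol ester hydrolase gene, stood at 66.4 and 78.3 FPKM, and Lipe, the hormone-sensitive lipase gene, at 8.70 and 8.49 FPKM.

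Lipa encodes the lysosomal acid lipase that frees cholesterol and fatty acids from ingested lipoproteins (chromosome 19, 34492318 to 34527474, minus strand, mm10). It stood at 1109 FPKM under MEK1-low and 991 FPKM under MEK1-hi treatment. This is a log2 fold change of -0.16 (p = 0.337, q = 0.999, from the authors' deposited table). Soat1 encodes the enzyme that turns free cholesterol back into ester for storage (chromosome 1, 156424525 to 156474331, minus strand, mm10). It stood at 169 and 176 FPKM, which is 0.06 on the log2 scale (p = 0.845, q = 0.999, from the authors' deposited table). In the list of cholesterol esterification and lysosomal sterol release, 0 of the 11 other tested loci passed, with 0 at an unadjusted p under 0.05 and a median log2 fold change of -0.09. The lysosomal sterol carrier gene Npc2 stood at 489 and 459 FPKM and Lamp1, a lysosomal membrane gene, at 799 and 768 FPKM.

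**Figure D3:**
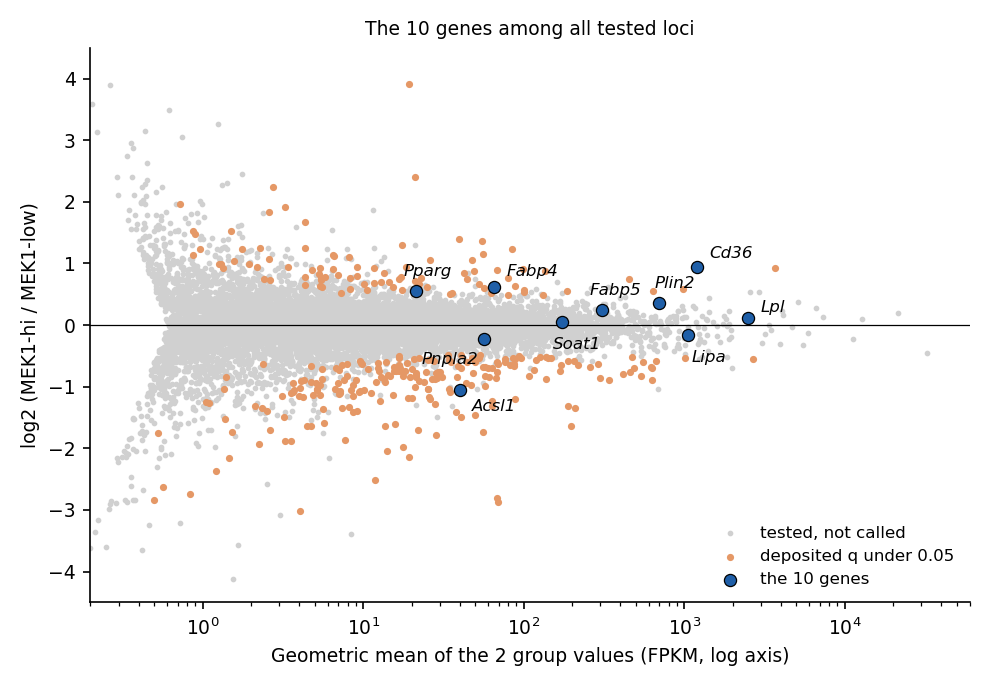
log2 fold change of MEK1-hi over MEK1-low exosomes against the geometric mean of both group values (FPKM, log axis) for the tested loci, with loci of a deposited q-value under 0.05 in orange and the 10 genes in blue. 7 loci lie outside the axes. Cd36 stands at the upper right and Acsl1 among the orange points below 0, while Lpl, Lipa and Soat1 lie near the line at 0.

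The other genes of the pathway were read from 10 lists, which held 106 tested loci besides the 10 genes. Of these, 0 rose and 3 fell, or 2.83%, near the 2.44% of all tested loci, and their median log2 fold change was -0.02. By the unadjusted p of the authors' deposited table, 4 were higher and 6 lower at under 0.05. Agpat4 and Nr1h3 were among those that fell. Nr1h3 encodes the sterol receptor LXR alpha. Its locus, which also holds Gm13783, fell from 63.1 to 43.7 FPKM (q = 0.0305, from the authors' deposited table).

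Other known PPAR targets mostly did not pass. Of 17 tested loci of that list, 0 rose and 1 fell (Nr1h3), and their median log2 fold change was 0.01. At an unadjusted p under 0.05, 3 were higher, the cholesterol exporter genes Abcg1 (33.6 and 60.7 FPKM) and Abca1 (60.03 and 80.9 FPKM) and the transglutaminase gene Tgm2 (53.4 and 68.2 FPKM). Their q-values in the authors' deposited table were 0.103, 0.189 and 0.382. Cpt1a, the entry enzyme of mitochondrial fatty acid oxidation, stood at 42.4 and 45.6 FPKM, and Ucp2, a mitochondrial carrier gene, at 2009.8 and 1899 FPKM. Pdk4, a target that many tissues induce when they burn fat, stood at 0.0843 and 0.0305 FPKM and was not tested.

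Fatty acid oxidation genes showed 0 calls among 25 tested loci, and 0 had an unadjusted p under 0.05 in the authors' table. Values were higher in 11 and lower in 14, and the median log2 fold change was -0.01. Hadha, of the trifunctional protein, stood at 42.6 and 49.4 FPKM, and Acadm, the medium-chain dehydrogenase gene, at 41.3 and 41.6 FPKM. The locus of highest level in this list, 1324 FPKM with MEK1-low exosomes, joins Acads with Rpl37rt, whose reads cannot be told apart.

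**Figure D4:**
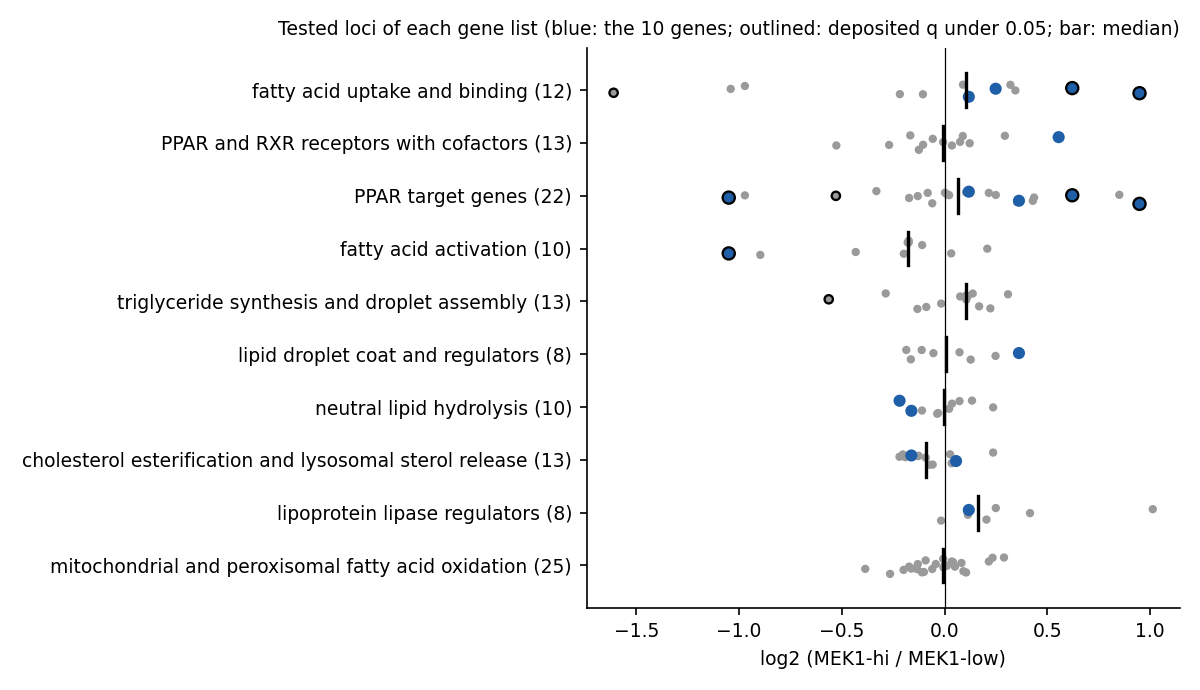
log2 fold change of MEK1-hi over MEK1-low exosomes for the tested loci of each gene list (number tested in brackets), with the 10 genes in blue, a black outline where the deposited q-value was under 0.05 and a bar at the median. The medians lie between -0.18 (fatty acid activation) and 0.16 (lipoprotein lipase regulators), and some genes stand in more than 1 list.

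Among uptake and binding genes outside the 10, 8 loci were tested and 0 rose. Cav1, the gene of caveolin, which shapes pits in the cell membrane, stood at 73.8 FPKM under MEK1-low and 35.9 FPKM under MEK1-hi treatment (q = 0.0734, from the authors' deposited table). Lrp1, a large lipoprotein receptor gene, stood at 285 and 362 FPKM, and the transporter gene Slc27a1 at 122 and 129 FPKM.

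In this table likeness to Cd36 can be judged only from 2 group values. Of 782 tested loci of 1 gene with at least 100 FPKM in both groups, the 4 with the log2 fold change nearest to that of Cd36 were Selenop (100.1 and 185 FPKM), Adam8 (351 and 588 FPKM), Msr1 (270.1 and 417 FPKM) and Stab1 (214 and 324 FPKM). Selenop encodes selenoprotein P and Adam8 a membrane protease, while Msr1 and Stab1 encode scavenger receptors. Their log2 fold changes were 0.89, 0.74, 0.63 and 0.60. Selenop and Adam8 rose (q = 0.00349 for both, from the authors' deposited table), and Msr1 and Stab1 did not pass (q = 0.067 and 0.154). Of the 782 loci, which leave out Cd36, 32 passed. The 4 were picked for a fold change near that of a gene that passed, which by itself favours passing.

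Cd36, Pparg, Fabp4, Lpl and Plin2 are also genes of fat cells, and Cd36 and Fabp4 of blood vessel cells, so markers of other cells were read beside them. Macrophage transcripts were abundant, with all 15 markers tested, a summed level of 25870 FPKM under MEK1-low and 26491 FPKM under MEK1-hi treatment, and 1 that rose (Mrc1, 17.5 and 29.9 FPKM) and 1 that fell (Cd14, 213 and 136 FPKM). Of 13 fat cell markers 1 was tested, Lipe, and the sum of all was 8.92 and 8.71 FPKM. In that list, Adipoq, Lep, Cfd, Cidec, Pck1 and Adrb3 were listed at 0 in both groups. Of 10 endothelial markers 5 were tested and 0 passed, the sum was 7.31 and 4.46 FPKM, and Gpihbp1, Cldn5 and Tek were listed at 0 in both. The sum of 12 fibroblast and fibrosarcoma markers was 15.8 and 15.4 FPKM. That of 8 dendritic cell markers, mostly Batf3, was 42.5 and 37.8 FPKM, and that of 10 T cell markers, mostly Cd4, 7.56 and 5.17 FPKM. For 10 neutrophil markers the sum was 73.5 and 53.6 FPKM, almost all from Csf3r (37.8 and 30.8 FPKM) and S100a8 (35.5 and 22.6 FPKM). S100a9, Ly6g, Mpo, Elane, Retnlg and Ngp were listed at 0 in both groups. The sums for fat, vessel and T cells are below the level of each of the 10 genes in the same group. Marker levels do not measure how much RNA of the 10 genes came from such cells. The part of any of these other cells in the results was not tested.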

How the data were processed

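TopHat, Cufflinks and Cuffdiff, FastQC 0.73 and the mouse build mm10 are listed in the submitters' processing notes. The authors deposited 1 table in Cuffdiff's layout. Per the file headers, each locus has 1 FPKM value per group, and a test statistic (a score), p-value and q-value. Its GFP exo column was matched to MEK1-low through the treatment label. The sources used here do not give how group values were pooled and normalized. No values per sample were used here, so every test is the authors' own. Fold changes were computed from the FPKM values with Python 3.11.15, since 1555 cells of the deposited log2 column held an error text. Adjusting the deposited p-values over the 12648 tested loci by Benjamini-Hochberg gave the q-values back within 5.19e-07. Symbols were found for 54771 of 55029 identifiers (99.5%), positions come from GENCODE M21, and promoter sequences from RefSeq. A further 871 tested loci join several genes. Near-identical transcripts were sought with blastn 2.17.0, a check added after the values were seen. The fold change and counting steps were tested on simulated data.

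The members, gene lists and tests were chosen with earlier results of these data known. The genes named are the 10 members, up to 4 passing loci and up to 3 further loci of the highest level per list, and the 4 loci nearest Cd36. Others were named after their values were seen, and some that the rule names are not reported here. Alternatives tried were other q-value thresholds, an unadjusted p, a minimum statistic, level or fold, joined loci left out, pseudocounts and 4 other scalings.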

Additional observations from a re-analysis of the deposited data

How the results depend on the processing

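Of the 10 genes, 3 passed at a q-value under 0.05, and 5 did at an unadjusted p under 0.05 (Pparg and Plin2 joining) and 1, Acsl1, when a change of at least 2-fold was also required. Fabp4 was not called at a q-value under 0.01, where 2 of the 10 remained. Over all loci the 309 calls became 1095 at an unadjusted p and 114 with the fold minimum. Over the pathway lists the 6 calls became 3 at a q-value under 0.01, 15 at an unadjusted p and 2 with the fold minimum. The other thresholds and filters tried kept each count within 1.5 times. The median log2 fold change of the 10 genes ran from 0.18 to 0.23 over the pseudocounts and scalings tried, with 7 values above and 3 below 0 in each. The log2 fold change of Cd36 ran from 0.95 to 0.99, of Fabp4 from 0.61 to 0.67 and of Acsl1 from -1.05 to -1.01. No paired analysis was possible because the table gives 1 value per group. For the same reason no replicate could be left out. The precision of low values is unknown without counts.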

Other observations

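The fatty acid binding protein family held another abundant gene besides Fabp4 and Fabp5. Fabp7, best known as the brain-type carrier, stood at 193 FPKM under MEK1-low and 241 FPKM under MEK1-hi treatment, a log2 fold change of 0.32 that did not pass over all loci (p = 0.0274, q = 0.416, from the authors' deposited table). Of 9 Fabp genes by symbol, 4 were tested, and Fabp3, the heart-type carrier, stood at 0.818 and 0.417 FPKM. A set chosen after the values were seen was the 140 tested loci with at least 500 FPKM in both groups. Of these, 7 passed in the authors' deposited table, 4 of them higher. Over all tested loci, 2.44% passed, 0.751% higher, and 3.23% passed among those with at least 10 FPKM in either group. Cd36 had the highest log2 fold change of the 140 loci. Apoc1, a small apolipoprotein gene next to Apoe, stood at 2.18 and 4.40 FPKM, a log2 fold change of 1.01 at a low level (q = 0.722, from the authors' deposited table).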
